A study of Rattus norvegicus with 8 samples.

Results

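NF-kB is a family of dimeric transcription factors, and the transcripts of its 5 subunits and of 5 of its inhibitors were examined in rat sciatic nerve. The 10 genes were taken by symbol from the 32545 genes of the expression table, and each matched 1 row. All 10 passed the filter on low values, as did 16478 genes in all. Bulk poly-A RNA was sequenced from 8 sciatic nerve samples of outbred female Sprague Dawley rats aged 3 to 6 months. In 3 animals, an ablated nerve segment was replaced by a peripheral nerve allograft (PNA) joined with polyethylene glycol (PEG-fused PNAs, libraries PEG 1 to 3), and in 3 animals by a PNA joined without PEG (negative control PNAs, NC 1 to 3). Both kinds of PNA came from donors that were not tissue matched, were given without immune suppression, were bathed in hypotonic Plasmalyte and methylene blue, were sutured, and were excised 14 days postoperatively. Unoperated control nerves came from 2 further animals (Unop 1 and 2). A PNA therefore held cells of an outbred donor together with cells of the host, and the 2 sources were not separated.

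NF-kB subunits wait in the cytoplasm, held there by inhibitors of the IkB family. Signals from cytokine, Toll-like and antigen receptors activate IkB kinases, which mark the inhibitors for destruction and let the dimers enter the nucleus. Rela, Rel and Nfkb1 (whose product is processed to p50) serve mainly the canonical arm, and Relb and Nfkb2 (processed to p52) the non-canonical arm. Several subunits and inhibitors are themselves targets of NF-kB, so that the pathway feeds back on its own transcripts. In injured nerve, Schwann cells, macrophages and arriving lymphocytes all use this pathway.

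The promoter sequences of the genes show which of them hold letters like those these dimers are known to bind, close to the transcript start. RefSeq promoters on GRCr8 (250 bases before to 50 bases after the start, 300 bases in all) were found for 9 of the 10 genes, and none was found for Relb. They were searched on both strands for the kappa B consensus, a motif of 10 bases, with overlapping matches counted. A match was found in 7 of the 9 promoters, and none in those of Rela and Nfkbib. Among the 11277 tested genes with a RefSeq promoter, 10.6% held a match. Promoters of 3 inhibitors and of 1 non-canonical subunit are given below beside that of Rela, with the matched bases in capitals and the gene strand read 5′ to 3′.
Nfkb2 (chr1:255108124-255108423, plus strand): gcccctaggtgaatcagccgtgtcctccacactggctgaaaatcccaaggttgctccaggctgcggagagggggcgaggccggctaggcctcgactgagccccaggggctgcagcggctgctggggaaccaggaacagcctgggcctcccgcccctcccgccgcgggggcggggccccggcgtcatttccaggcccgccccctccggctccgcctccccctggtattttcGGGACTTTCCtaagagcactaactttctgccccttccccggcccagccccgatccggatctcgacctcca
Nfkbia (chr6:78597023-78597322, minus strand): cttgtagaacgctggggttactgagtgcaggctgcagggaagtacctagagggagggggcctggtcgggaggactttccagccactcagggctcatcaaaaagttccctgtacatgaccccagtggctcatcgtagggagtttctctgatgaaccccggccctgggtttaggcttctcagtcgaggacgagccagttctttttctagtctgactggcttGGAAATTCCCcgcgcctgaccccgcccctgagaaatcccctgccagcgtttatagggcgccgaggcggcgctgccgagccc
Nfkbiz (chr11:58251471-58251770, plus strand): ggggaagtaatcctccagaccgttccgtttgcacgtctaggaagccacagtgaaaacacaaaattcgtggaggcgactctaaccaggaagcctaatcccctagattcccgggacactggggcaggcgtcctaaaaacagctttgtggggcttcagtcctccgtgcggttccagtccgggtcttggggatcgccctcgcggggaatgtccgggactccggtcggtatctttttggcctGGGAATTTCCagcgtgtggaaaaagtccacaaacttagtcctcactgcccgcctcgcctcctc
Tnfaip3 (chr1:15543930-15544229, minus strand): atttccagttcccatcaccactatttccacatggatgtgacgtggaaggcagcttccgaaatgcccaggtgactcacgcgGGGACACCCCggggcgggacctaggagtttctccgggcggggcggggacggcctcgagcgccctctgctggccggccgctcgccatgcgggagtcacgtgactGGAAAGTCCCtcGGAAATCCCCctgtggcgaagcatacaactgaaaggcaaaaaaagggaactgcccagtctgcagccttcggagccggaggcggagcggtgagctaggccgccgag
Rela (chr1:212354086-212354385, plus strand): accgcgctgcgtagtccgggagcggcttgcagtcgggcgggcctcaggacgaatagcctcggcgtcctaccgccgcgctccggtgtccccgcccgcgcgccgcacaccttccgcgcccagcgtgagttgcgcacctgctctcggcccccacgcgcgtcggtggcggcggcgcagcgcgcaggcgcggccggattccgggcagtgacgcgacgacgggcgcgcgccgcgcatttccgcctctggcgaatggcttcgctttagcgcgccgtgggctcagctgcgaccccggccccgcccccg

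Nfkb2 held 1 match, GGGACTTTCC, that began 20 bases before the start. The match in Nfkbia lay on the opposite strand and is read as GGAAATTCCC on the gene strand, beginning 31 bases before the start. In Nfkbiz, GGGAATTTCC began 13 bases before the start, and the same 10 bases were found in Nfkb1, 4 bases after its start. Tnfaip3 held 3 matches, GGGACACCCC at 170 bases, GGAAAGTCCC at 67 bases and GGAAATCCCC at 55 bases before the start. Rel held matches at 2 places, beginning 219 and 82 bases before its start, and Nfkbie held GGGGGATTCC at 164 bases before its start. More than 1 match was found in 1.60% of the promoters of tested genes. A match describes the letters of a promoter and was not tested for binding, and the absence of a match says only that these letters are not in this window.

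**Figure D1:**
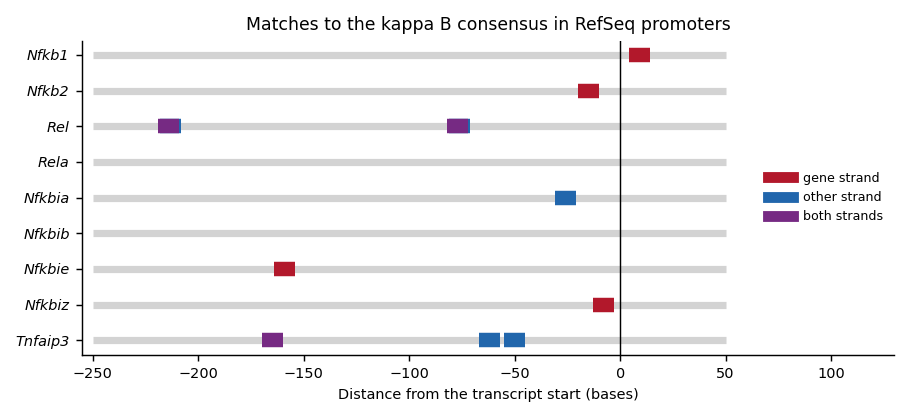
Positions of matches to the kappa B consensus in the RefSeq promoters of 9 genes; the horizontal axis is the distance from the transcript start in bases, each grey line is 1 promoter and each coloured block is 1 match. Rel and Tnfaip3 held matches at several places, and Rela and Nfkbib held none.

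To determine whether the pathway's own transcripts differed among the treatment groups, the normalized read count of each gene was compared by limma on log2(normalized count + 1). Fold changes below are on that scale, and significance was set at an adjusted p value under 0.05. In PEG-fused PNAs, 9 of the 10 transcripts were downregulated compared to NC PNAs, and Rela was the exception. All 16478 tested genes gave 13.9% downregulated and 15.0% upregulated in PEG-fused PNAs, so the share of NF-kB transcripts that fell was above the background. None of the 10 was upregulated by limma, at an adjusted or at an unadjusted p under 0.05, and 0 were upregulated by edgeR or DESeq2. For 7 transcripts the fall was also larger than 1 on the log2 scale, as it was for 7.14% of all tested genes. The background itself fell when any PEG or NC library was left out. With all libraries, 2477 genes were upregulated and 2286 downregulated. The counts were 1815 and 1669 without PEG 1, 1359 and 1390 without PEG 2, and 1601 and 1531 without PEG 3. They were 2243 and 2081 without NC 1, 1854 and 1964 without NC 2, and 1949 and 1709 without NC 3. The count of 9 downregulated NF-kB transcripts was the same in every alternative fit, including each one without 1 library.

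Compared to unoperated control nerves, 9 of the 10 transcripts were upregulated in NC PNAs, against 32.2% of all tested genes, and none was downregulated, against 32.3%. The count of 0 was also obtained from edgeR and DESeq2 and at an unadjusted p under 0.05 from limma, and it became 1 (Rela) without NC 2. The rise was larger than 1 on the log2 scale for 8 transcripts, as it was for 19.6% of all tested genes. In PEG-fused PNAs, 5 of the 10 transcripts were upregulated compared to unoperated control nerves and 2 were downregulated, against 29.1% and 28.6% of all tested genes. The 2 were Rela and Nfkbia, and 1 (Nfkbia) was left without PEG 1 or without Unop 1. Both comparisons use the same 2 unoperated nerves, and their values are therefore given side by side. The median log2 difference of the 10 transcripts was -1.15 for PEG-fused against NC PNAs, 1.89 for NC PNAs against unoperated nerves and 0.39 for PEG-fused PNAs against unoperated nerves. The corresponding medians over all tested genes were 0.00, 0.02 and 0.01.

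The transcripts fell into 4 orders. Nfkb2, Rel, Nfkbie, Nfkbiz and Tnfaip3 were highest in NC PNAs, intermediate in PEG-fused PNAs and lowest in unoperated nerves. Nfkb1, Relb and Nfkbib were highest in NC PNAs, and the difference between PEG-fused PNAs and unoperated nerves did not pass the test for them. Nfkbia was highest in NC PNAs and lowest in PEG-fused PNAs, with the unoperated nerves between them. Rela was higher in unoperated nerves than in PEG-fused PNAs, and its level in NC PNAs was not separated from either group by the test.

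**Figure D2:**
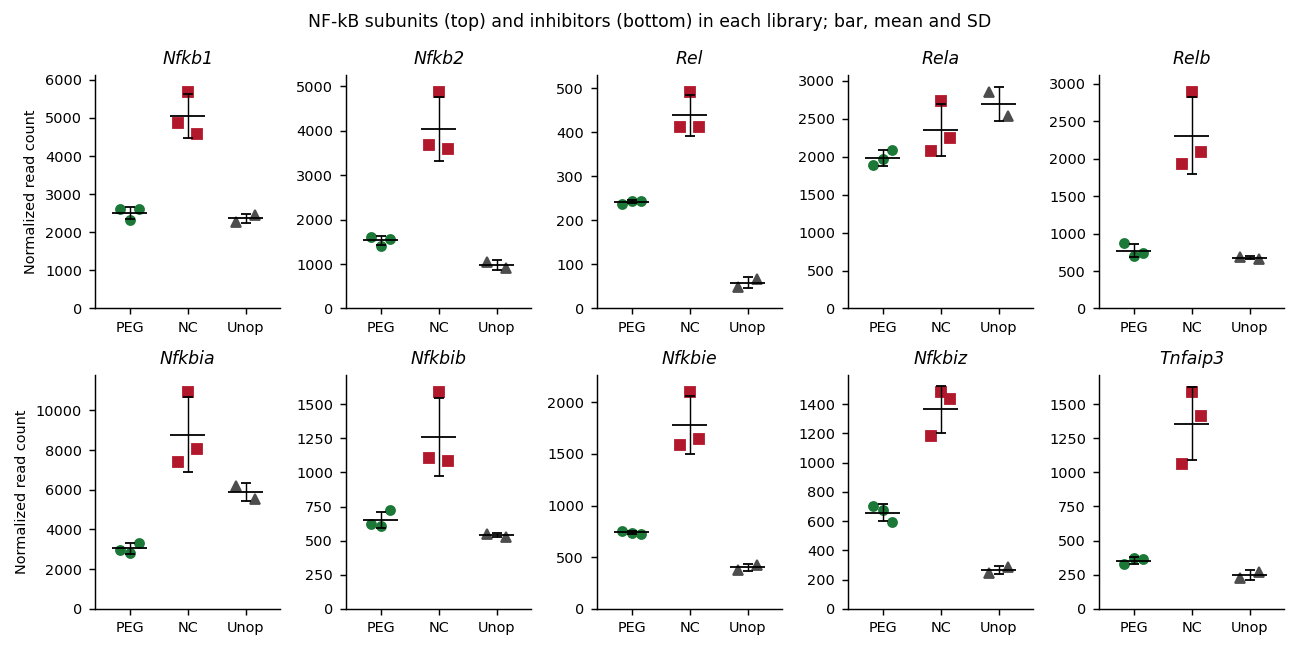
Normalized read counts (vertical axes, from 0) of the 5 subunits and 5 inhibitors in each library; points are single libraries, and bars are the mean and SD of each group (PEG, n = 3; NC, n = 3; Unop, n = 2). The NC libraries stand above the PEG libraries for every gene except Rela, and Nfkbia is lower in all PEG libraries than in both Unop libraries.

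Among the canonical subunits, Nfkb1 (ENSRNOG00000023258) encodes p105, the precursor of p50. Nfkb1 was at 2599, 2329 and 2607 normalized read counts in PEG 1 to 3, at 4874, 5684 and 4587 in NC 1 to 3, and at 2281 and 2448 in Unop 1 and 2. Every NC library was above all others, and the PEG and Unop libraries overlapped. The transcript was 2.00-fold lower in PEG-fused than in NC PNAs (log2 fold change -1.003, SE 0.0995, adjusted p = 0.000631), which lies at the boundary of the 1 in log2 used above. Against unoperated nerves, it was upregulated in NC PNAs (log2 fold change 1.09, adjusted p = 5.23e-05). In PEG-fused PNAs the difference from unoperated nerves was 0.09 (95% interval -0.17 to 0.34, adjusted p = 0.533).

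Rel (ENSRNOG00000054437) encodes c-Rel, a subunit known mainly from lymphocytes and myeloid cells. Rel was at 238, 245 and 244 normalized read counts in PEG 1 to 3, at 411, 492 and 413 in NC 1 to 3, and at 49.4 and 67.5 in Unop 1 and 2. The 3 groups did not overlap. It was 1.80-fold lower in PEG-fused than in NC PNAs (log2 fold change -0.85, SE 0.16, adjusted p = 0.00638). Of the 10 transcripts, Rel had the largest log2 difference from unoperated nerves, 2.05 in PEG-fused PNAs (adjusted p = 3.16e-05) and 2.90 in NC PNAs (adjusted p = 3.65e-06).

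Rela (ENSRNOG00000030888) encodes p65, the subunit that carries the transactivation domain of the common p50-p65 dimer. Rela was at 1891, 1969.8 and 2089 normalized read counts in PEG 1 to 3, at 2080.3, 2732 and 2248 in NC 1 to 3, and at 2854 and 2533 in Unop 1 and 2. PEG and NC libraries overlapped, as did NC and Unop libraries, while all PEG libraries were below both Unop libraries. The difference between PEG-fused and NC PNAs was -0.24 on the log2 scale (95% interval -0.50 to 0.02, adjusted p = 0.149). Rela was 1.36-fold lower in PEG-fused PNAs than in unoperated nerves (log2 fold change -0.44, SE 0.126, adjusted p = 0.0164). That call was lost without PEG 1 (-0.41, adjusted p = 0.0526) or without Unop 1 (-0.35, adjusted p = 0.105). Across the alternatives the adjusted p of Rela lay between 0.00556 and 0.105. In NC PNAs the difference from unoperated nerves was -0.20 (95% interval -0.49 to 0.09, adjusted p = 0.192), and it passed the test only without NC 2 (-0.31, adjusted p = 0.0334).

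The non-canonical subunits changed more between the grafts than the canonical ones did in point estimate, though the difference between genes was not tested. Nfkb2 (ENSRNOG00000019311), which encodes p100, both an inhibitor of Relb and the precursor of p52, was at 1619, 1414 and 1567 normalized read counts in PEG 1 to 3, at 3676, 4879 and 3587 in NC 1 to 3, and at 1056 and 908 in Unop 1 and 2. The 3 groups did not overlap. Nfkb2 was 2.62-fold lower in PEG-fused than in NC PNAs (log2 fold change -1.39, SE 0.133, adjusted p = 0.000623). It was upregulated over unoperated nerves in PEG-fused PNAs (log2 fold change 0.64, adjusted p = 0.00583) and in NC PNAs (log2 fold change 2.03, adjusted p = 8.33e-06).

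Relb (ENSRNOG00000033235), the partner of p52, was at 870.3, 705 and 735 normalized read counts in PEG 1 to 3, at 1936, 2894 and 2091 in NC 1 to 3, and at 692 and 663 in Unop 1 and 2. NC libraries were far above the rest, and the PEG libraries began just above the Unop libraries. Relb was 2.96-fold lower in PEG-fused than in NC PNAs (log2 fold change -1.57, SE 0.157, adjusted p = 0.000644), the largest fall of the 5 subunits. The difference between PEG-fused PNAs and unoperated nerves was 0.18 (95% interval -0.22 to 0.58, adjusted p = 0.408), beside 1.74 for NC PNAs (adjusted p = 4.74e-05).

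Several kinds of inhibitor were represented: classical IkB proteins that hold the dimers in the cytoplasm (Nfkbia, Nfkbib and Nfkbie), the nuclear protein of Nfkbiz, which modulates a subset of targets, and the ubiquitin-editing enzyme of Tnfaip3, which acts upstream of the kinases. Nfkbia (ENSRNOG00000007390), which encodes IkB alpha, the rapidly induced inhibitor, was at 2987, 2804 and 3326 normalized read counts in PEG 1 to 3, at 7398, 10923 and 8037 in NC 1 to 3, and at 6209.6 and 5548 in Unop 1 and 2. The groups did not overlap, and the unoperated nerves stood between the grafts. Nfkbia was 2.86-fold lower in PEG-fused than in NC PNAs (log2 fold change -1.51, SE 0.148, adjusted p = 0.000624). It was also 1.94-fold lower in PEG-fused PNAs than in unoperated nerves (log2 fold change -0.95, SE 0.165, adjusted p = 0.00135), the only inhibitor of the 5 for which this was the case. In NC PNAs it was 1.48-fold higher than in unoperated nerves (log2 fold change 0.56, adjusted p = 0.0164). This last call was lost without Unop 2 (0.48, adjusted p = 0.0981), and the alternatives gave adjusted p values between 0.00392 and 0.0981.

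Nfkbib (ENSRNOG00000020063), which encodes IkB beta, was at 621, 610.5 and 721 normalized read counts in PEG 1 to 3, at 1108, 1589 and 1080.4 in NC 1 to 3, and at 549 and 528 in Unop 1 and 2. It was 1.91-fold lower in PEG-fused than in NC PNAs (log2 fold change -0.93, SE 0.156, adjusted p = 0.00401). NC PNAs exceeded unoperated nerves (log2 fold change 1.20, adjusted p = 0.000406), and the difference of PEG-fused PNAs from unoperated nerves was 0.27 (95% interval -0.13 to 0.67, adjusted p = 0.219). In the RefSeq annotation, 1 other protein-coding gene overlaps Nfkbib, and its reads could not be told apart here if the counting ignored strand.

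Nfkbie (ENSRNOG00000019907), which encodes IkB epsilon, was at 751, 739 and 729 normalized read counts in PEG 1 to 3, at 1591, 2099 and 1649 in NC 1 to 3, and at 379 and 428 in Unop 1 and 2. The PEG libraries agreed within a coefficient of variation of 1.48%, and the 3 groups did not overlap. Nfkbie was 2.39-fold lower in PEG-fused than in NC PNAs (log2 fold change -1.25, SE 0.12, adjusted p = 0.000623). It was upregulated over unoperated nerves in PEG-fused PNAs (log2 fold change 0.88, adjusted p = 0.000715) and in NC PNAs (log2 fold change 2.13, adjusted p = 4e-06).

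Nfkbiz (ENSRNOG00000031163) was at 704, 673 and 592 normalized read counts in PEG 1 to 3, at 1180.5, 1481 and 1432 in NC 1 to 3, and at 248 and 285 in Unop 1 and 2. The 3 groups did not overlap. It was 2.07-fold lower in PEG-fused than in NC PNAs (log2 fold change -1.05, SE 0.125, adjusted p = 0.00118). Compared to unoperated nerves, the log2 fold change was 1.30 in PEG-fused PNAs (adjusted p = 0.000102) and 2.35 in NC PNAs (adjusted p = 3.11e-06).

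Tnfaip3 (ENSRNOG00000049517), which encodes A20, was at 327, 373 and 361 normalized read counts in PEG 1 to 3, at 1064, 1588 and 1416 in NC 1 to 3, and at 223 and 271 in Unop 1 and 2. Every NC library was above every PEG library, and every PEG library was above both Unop libraries. It was 3.78-fold lower in PEG-fused than in NC PNAs (log2 fold change -1.92, SE 0.162, adjusted p = 0.000472), the largest fall of the 10 transcripts. NC PNAs exceeded unoperated nerves by 2.44 on the log2 scale (adjusted p = 9.27e-06). In PEG-fused PNAs the rise was 0.52 (SE 0.182, adjusted p = 0.0371) and was lost without PEG 1 (0.57, adjusted p = 0.0526), PEG 2 (0.48, adjusted p = 0.0926), PEG 3 (0.50, adjusted p = 0.0867), NC 3 (0.52, adjusted p = 0.0536) or Unop 1 (0.38, adjusted p = 0.201). The alternatives gave adjusted p values between 0.0131 and 0.201.

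**Figure D3:**
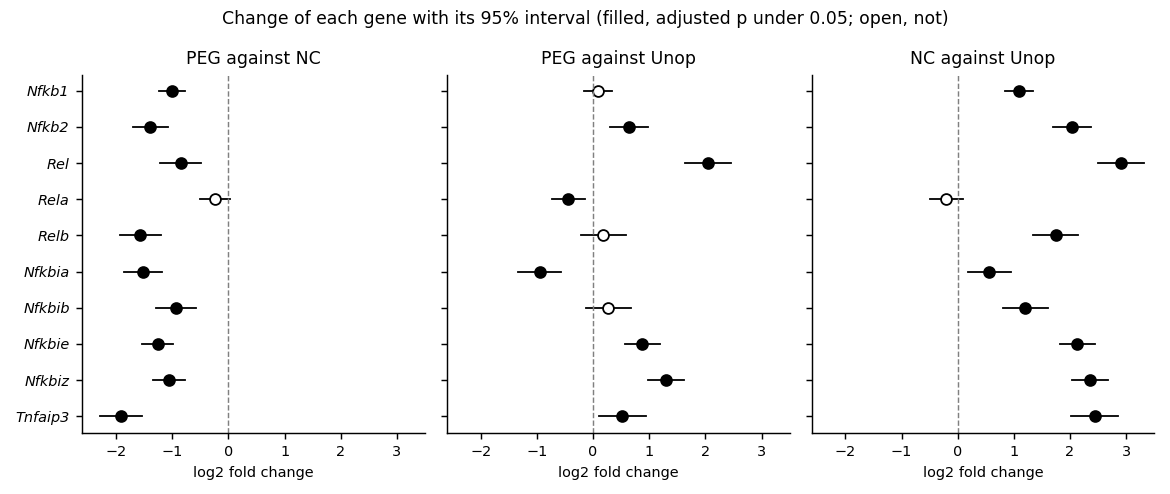
Log2 fold change (horizontal axes) of each gene in the 3 comparisons, with its 95% interval from limma; filled points passed an adjusted p of 0.05 and open points did not. Rela is the 1 open point for PEG-fused against NC PNAs, and Nfkbia is the inhibitor with opposite signs in the 2 comparisons with unoperated nerves.

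For each of the 10 transcripts, replicates agreed more closely in the PEG-fused than in the NC PNAs. This was not tested, and the share of all tested genes with the same order was not determined. The coefficient of variation of a transcript ran from 1.48% to 11.4% over the PEG libraries and from 10.5% to 22.7% over the NC libraries. NC 2 was the highest NC library for all 10 transcripts, whereas 39.0% of all tested genes were highest there. NC 2 also held the highest summed counts of the T cell and general leukocyte markers. The macrophage sum, in contrast, was highest in NC 3 (159656, against 154952 in NC 2). The skeletal muscle sum was lowest in NC 2 among the NC libraries (9407, against 563872 in NC 1 and 215314 in NC 3). The part of any of these cell types in the height of NC 2 was not tested. Leaving NC 2 out changed no call between PEG-fused and NC PNAs. Without overlap of single libraries, 9 of the 10 transcripts were lower in all PEG than in all NC libraries, as were 23.3% of tested genes. An exact permutation test of 3 against 3 libraries cannot go below 0.1, so that significance rests on the fit across all genes.

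Because a bulk library mixes cell types, fewer cells of a type and less RNA per cell cannot be told apart. Markers of several cell types moved with the NF-kB transcripts. Their counts stand beside 13.9% of all tested genes lower and 15.0% higher in PEG-fused than in NC PNAs. All 9 T cell markers were lower in PEG-fused than in NC PNAs, and their summed normalized counts were 1582 to 4559 in PEG, 19895 to 39528 in NC and 266 to 457 in Unop libraries. Of 8 macrophage markers, 6 were lower, with sums of 89166 to 105615 in PEG, 136902 to 159656 in NC and 15507 to 25737 in Unop libraries. Cd68 went the other way, at 20030 to 22451 in PEG and 14060 to 18968 in NC libraries, though it did not pass the test. Lower levels were also called for 3 of 4 general leukocyte markers, 4 of 6 dendritic cell markers, 4 of 4 tested B cell markers and 2 of 4 tested neutrophil markers. The neutrophil markers did not move together. Mpo was at 0 to 4.69 in PEG and 6.45 to 16.1 in NC libraries, but at 391 and 343 in Unop 1 and 2. Mean levels in PEG and NC libraries were 17.7 and 13.5 for S100a8, and 46.6 and 47.5 for S100a9. The part of any of these cell types in the fall of the NF-kB transcripts was not tested. Schwann cell markers went the other way, with 3 of 5 higher in PEG-fused than in NC PNAs and sums of 57902 to 64985 in PEG and 21348 to 56898 in NC libraries. The sum reached at least 1330080 in both unoperated nerves, and all Schwann cell markers were detected in every library. Of the remaining lists, 1 of 4 tested endothelial markers was lower, 2 of 4 fibroblast markers were higher, and no skeletal muscle marker of the 4 tested was called. The muscle sums were 563872 in NC 1, 9407 in NC 2 and 215314 in NC 3. Elane was at 0 in both unoperated nerves, and no other marker with a row was at 0 throughout a group.

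Ratios within a library do not depend on its scaling, and they show how unequally the transcripts changed. Relative to Rela, every other NF-kB transcript was lower in all PEG than in all NC libraries, as each also was without this division. The share of all tested genes with this order over Rela was not determined. Nfkbia over Rela was 1.58, 1.42 and 1.59 in PEG 1 to 3, 3.56, 4.00 and 3.58 in NC 1 to 3, and 2.18 and 2.19 in Unop 1 and 2. The unoperated nerves therefore again lay between the grafts. Tnfaip3 over Rela was 0.173, 0.189 and 0.173 in PEG 1 to 3, 0.512, 0.581 and 0.630 in NC 1 to 3, and 0.0782 and 0.107 in Unop 1 and 2. The ratio of Nfkb2 to Nfkb1, the 2 precursor subunits, was 0.601 to 0.623 in PEG, 0.754 to 0.858 in NC and 0.371 and 0.463 in Unop libraries, without overlap between groups. Nfkbia over Nfkb1 ran differently, at 1.15 to 1.28 in PEG, 1.52 to 1.92 in NC and 2.72 and 2.27 in Unop 1 and 2, highest in the unoperated nerves. These ratios are given without a test, and they compare the same 2 genes between libraries, not the levels of the genes with each other.

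Relative to Ptprc, which encodes the pan-leukocyte protein CD45, the picture between the grafts was mixed. Ptprc itself was 2.80-fold lower in PEG-fused than in NC PNAs (log2 fold change -1.48, SE 0.175, adjusted p = 0.00114). Relb over Ptprc was 0.0859, 0.0896 and 0.0781 in PEG 1 to 3 and 0.0902, 0.0894 and 0.0885 in NC 1 to 3, so that the grafts overlapped, as they did for Nfkb2 and Nfkbia. Nfkb1, Rel, Rela, Nfkbib, Nfkbie and Nfkbiz were higher relative to Ptprc in all PEG than in all NC libraries. Because Ptprc itself fell, a transcript that did not change between the grafts also rises relative to it. The median log2 difference over all tested genes was 0.00. The share of all tested genes with this order was not determined, so the order is not shown to be particular to these transcripts. For Nfkb1 the ratio was 0.257, 0.296 and 0.277 in PEG 1 to 3 and 0.227, 0.176 and 0.194 in NC 1 to 3. Tnfaip3 alone remained lower, at 0.0323, 0.0474 and 0.0383 in PEG 1 to 3 against 0.0496, 0.0491 and 0.0599 in NC 1 to 3. In unoperated nerves all 10 ratios to Ptprc were above those of every graft, with Nfkbia over Ptprc at 5.65 and 6.48. Ptprc itself was at 1099 and 857 normalized read counts in Unop 1 and 2. It was at 7870 to 10131 in PEG and 21474 to 32358 in NC libraries. A transcript that rose less than Ptprc in the grafts falls relative to it. The share of all tested genes with this order was not determined. Ptprc counts all leukocytes, and a ratio to it does not assign the transcripts to any cell type.

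**Figure D4:**
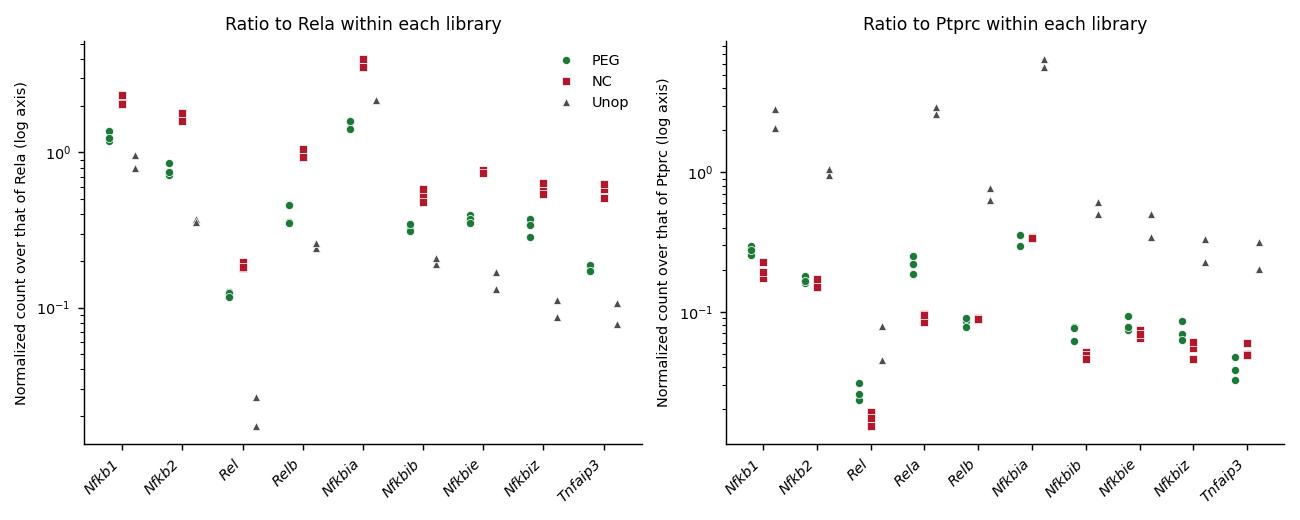
Normalized count of each NF-kB transcript divided by that of Rela (left) or Ptprc (right) in the same library, on log axes; each symbol is 1 library. Over Rela, the PEG libraries lie below the NC libraries for all 9 transcripts, whereas over Ptprc the grafts overlap for Nfkb2, Relb and Nfkbia, and Tnfaip3 is lower in the PEG libraries.

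The rest of the pathway was examined in 8 lists of genes, 86 of which were tested. In PEG-fused compared to NC PNAs, 51 of the 86 were downregulated and 2 upregulated, beside 13.9% and 15.0% of all tested genes, with a median log2 difference of -0.62. Compared to unoperated nerves, 48 were upregulated and 8 downregulated in PEG-fused PNAs (median 0.68), beside 29.1% and 28.6% of all tested genes. In NC PNAs, 65 were upregulated and 7 downregulated (median 1.29), beside 32.2% and 32.3%. The largest list medians between the grafts were those of the ligands (-2.72) and the targets (-1.28). The counts between the grafts of each single list below stand beside the same 13.9% downregulated and 15.0% upregulated. Most of these lists are short, so a count in them says little alone.

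Of the 9 ligands that start NF-kB signaling, 6 were tested and 4 were downregulated in PEG-fused compared to NC PNAs. Lta, which encodes lymphotoxin alpha, was at 14.8, 3.74 and 7.50 normalized read counts in PEG 1 to 3, 367, 342 and 146 in NC 1 to 3 and 1.07 and 2.50 in Unop 1 and 2 (log2 fold change between the grafts -4.94, SE 0.538, adjusted p = 0.000897). Il1b, which encodes the inflammatory cytokine interleukin 1 beta, fell by 2.89 on the log2 scale (SE 0.372, adjusted p = 0.00148), and Cd40lg, the T cell ligand of CD40, fell by 2.85 (SE 0.566, adjusted p = 0.00779). Tnf was listed at 0 in 7 libraries, Tnfsf11 was listed at 0 in all, and Ltb stayed under the filter. Map3k7, which encodes the widely used kinase TAK1, was also listed at 0 in all 8 libraries, so that a 0 in this table may not be read as an absent transcript. Of the 10 receptors, 4 were downregulated and 6 did not pass the test. Tnfrsf13c, the BAFF receptor of B cells, fell by 2.84 (adjusted p = 0.00221), Cd40, a receptor of antigen-presenting cells that feeds the non-canonical arm, fell by 2.36 (adjusted p = 0.000623), and Tnfrsf1b, which encodes TNF receptor 2, fell by 0.94 (adjusted p = 0.00124).

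For the lists that stand between the receptors and the IkB proteins, median differences ran from -0.71 to -0.19 on the log2 scale. Of the 12 tested kinases and their partners, 7 were downregulated in PEG-fused compared to NC PNAs and none was upregulated, with a list median of -0.37. Map3k8, a kinase held in check by p105, was at 442, 394 and 383 normalized read counts in PEG 1 to 3, 878, 1278 and 1009 in NC 1 to 3, and 250.1 and 231 in Unop 1 and 2 (log2 fold change between the grafts -1.36, SE 0.149, adjusted p = 0.000897). Map3k14, which encodes NIK, the kinase that starts the non-canonical arm, fell by 0.94 (adjusted p = 0.00269), and Ripk2, the kinase downstream of the NOD receptors, fell by 0.87 (adjusted p = 0.000624). Of the 7 tested genes of the Toll-like and interleukin 1 receptor arm, 2 were downregulated, the kinase Irak2 by 0.62 (adjusted p = 0.00786) and the adaptor Myd88 by 0.55 (adjusted p = 0.0152). Ticam1 had no row under its symbol.

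In the arm that serves antigen receptors, 5 of 6 tested genes were downregulated in PEG-fused compared to NC PNAs. Card10, a scaffold used outside lymphocytes, was upregulated (log2 fold change 0.43, adjusted p = 0.0355). It was at 475, 408 and 500 normalized read counts in PEG 1 to 3, 384, 306 and 335 in NC 1 to 3, and 1029 and 992 in Unop 1 and 2. Card10 was thus highest in the unoperated nerves. Prkcq, which encodes protein kinase C theta, was at 488, 384 and 503 normalized read counts in PEG 1 to 3, 1559, 1746 and 1234 in NC 1 to 3, and 4889.5 and 6340.0 in Unop 1 and 2. Its levels were thus highest in the unoperated nerves, unlike those of the NF-kB transcripts other than Rela, and it fell by 1.72 between the grafts (SE 0.168, adjusted p = 0.000624). Prkcb, which encodes protein kinase C beta, fell by 1.48 (adjusted p = 0.000819), and Malt1, the protease of this arm, fell by 0.80 (adjusted p = 0.00929).

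Of 18 tested ubiquitin enzymes, adaptors and TRAF proteins, 12 were downregulated in PEG-fused compared to NC PNAs and none was upregulated. Birc3, which encodes the ubiquitin ligase cIAP2, was at 766, 511 and 516 normalized read counts in PEG 1 to 3, 3245, 5228 and 3361 in NC 1 to 3, and 217 and 184 in Unop 1 and 2 (log2 fold change between the grafts -2.71, SE 0.222, adjusted p = 0.000439). Tnip3, which encodes a partner of A20, fell by 2.48 (adjusted p = 0.0441), and Traf1, a receptor adaptor, fell by 2.27 (adjusted p = 0.00111). Rnf11 had no row under its symbol. Of 5 further inhibitors and IkB-like proteins, Nfkbid, which encodes a nuclear IkB protein, fell by 1.85 (adjusted p = 0.00522), and Bcl3, which encodes a nuclear partner of p50 and p52, fell by 0.92 (adjusted p = 0.00447). Commd1, which encodes a factor that promotes the breakdown of nuclear p65, was upregulated by 0.34 (adjusted p = 0.0399).

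Of 24 known NF-kB target genes, all tested, 17 were downregulated in PEG-fused compared to NC PNAs and none was upregulated. All tested genes gave 13.9% downregulated and 15.0% upregulated, and the median log2 difference of the targets was -1.28. Nos2, which encodes the inducible nitric oxide synthase of activated macrophages, was at 8.34, 1.87 and 8.44 normalized read counts in PEG 1 to 3, 32.2, 219 and 183 in NC 1 to 3, and at 0 in both unoperated nerves (log2 fold change between the grafts -4.13, SE 0.778, adjusted p = 0.00638). Cxcl13, a chemokine that draws B cells, was at 1461, 618 and 352 in PEG 1 to 3, 6178, 16983 and 14416 in NC 1 to 3, and 618 and 504 in Unop 1 and 2. It fell by 4.07 between the grafts (SE 0.528, adjusted p = 0.0015), and PEG and Unop libraries overlapped. Ccl20, a chemokine for CCR6-bearing cells, fell by 3.87 (SE 0.781, adjusted p = 0.00835). In NC PNAs, 19 of the 24 targets were upregulated over unoperated nerves, beside 32.2% of all tested genes. In PEG-fused PNAs, 11 were upregulated and 1 was downregulated, beside 29.1% and 28.6%. The target list shares Birc3 and Traf1 with the list of ubiquitin enzymes and adaptors.

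**Figure D5:**
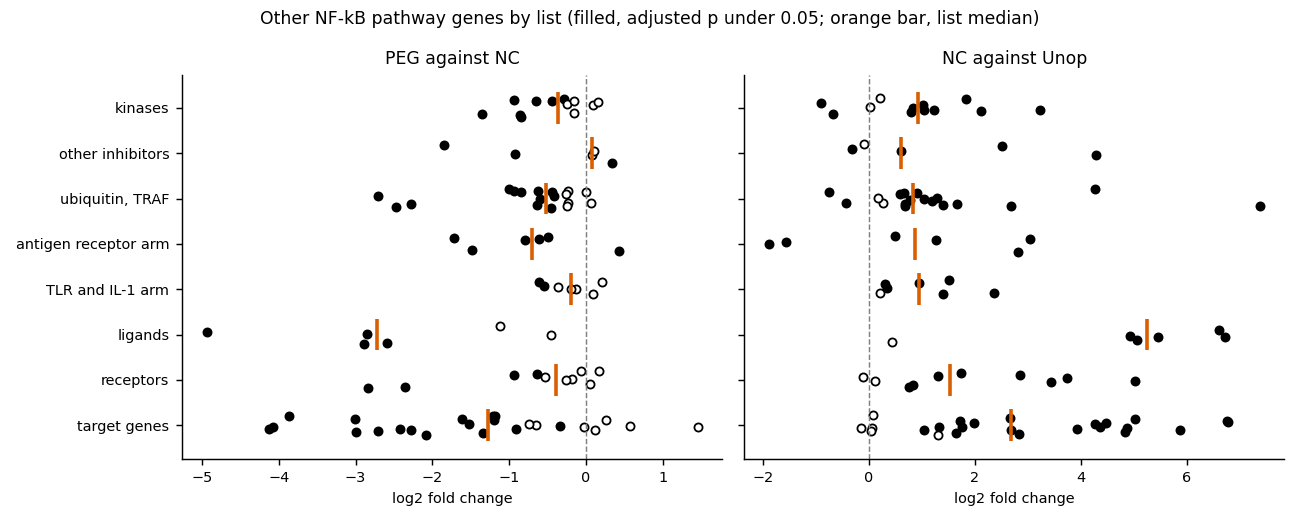
Log2 fold changes (horizontal axes) of the tested genes of 8 pathway lists in PEG-fused against NC PNAs (left) and NC PNAs against unoperated nerves (right); each point is 1 gene, filled where the adjusted p was under 0.05, and orange bars are list medians. The medians of the ligands and target genes lie farthest from 0 in both comparisons.

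The genes whose profiles over the 8 libraries were most like those of the NF-kB transcripts were found from the root mean square difference of gene-centred log2 values, and the 3 nearest are given for each. The difference is not scaled to the size of a transcript's own changes. How close the neighbours stand is therefore not comparable between transcripts that changed little, such as Rela, and those that changed much. The nearest genes to Relb were Icam1 (0.0923), Sod2 (0.0965) and Adora2a (0.108). Those nearest to Nfkb2 were Tcaf2 (0.0821), Parp8 (0.0900) and Map3k8 (0.0924), and those nearest to Nfkb1 were AABR07021955.1 (0.0824), Rfx5 (0.0941) and Arid3b (0.103). Rel and Rela differed in how close their neighbours stood. Rela was nearest to AABR07049755.1 (0.0335), Mboat7l1 (0.0542) and Anp32b (0.0543), and Rel to Fes (0.157), RGD1563917 (0.167) and Armc3 (0.168).

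Among the inhibitors, Nfkbib was nearest to Tnip1 (0.0966), Rab29 (0.116) and Tank (0.118), and Nfkbie to Fam49a (0.0803), Stk4 (0.101) and Parp8 (0.105), so that Parp8 was a neighbour of both Nfkb2 and Nfkbie. Nfkbiz was nearest to Gabrr2 (0.125), Cdyl2 (0.129) and Ptpn1 (0.147), and Nfkbia to Txn1 (0.132), Psen2 (0.148) and Clec2g (0.166). The neighbours of Tnfaip3 were the most distant, Cd274 (0.228), Lime1 (0.245) and Tnfaip8l3 (0.251). Of these 30 neighbours, with Parp8 counted under both Nfkb2 and Nfkbie, 4 were genes of the pathway lists (Icam1, Sod2, Map3k8 and Tnip1). The neighbours of the other 7 transcripts held none. The lists held 86 of the 16478 tested genes. Among the 10 transcripts themselves, Nfkb1 and Nfkbib were the closest pair (0.126) and Rel and Rela the most distant (1.25). All of these profiles share the same 8 libraries and the same division into groups.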

How the data were processed

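RNA from 3 PEG-fused PNAs, 3 NC PNAs and 2 unoperated nerves, each from a separate animal per the study's design, was sequenced by the authors as stranded paired-end mRNA libraries on 1 lane. The deposited values (signal) are read counts per gene that the authors obtained with TopHat2 (genome Rnor_6.0) and HTSeq-count, and then scaled in DESeq2 with its median-of-ratios method. The strand setting of the counting is not given in the sources used here. The single-sample files and the joint table held the same values. Deposited fold changes and p-values of the authors' own comparisons were not used.

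Division by 1 constant per library returned whole reads for 100% of values (within 0.001), with size factors of 0.800 to 1.12 and 32472925 to 39959620 reads on genes. Depth did not limit the 10 genes, the lowest of which stood at 49.4 normalized counts. Groups were taken from the sample labels. The 16478 genes that reached 10 normalized counts in 2 or more libraries were tested with limma 3.58.1 (trend, R 4.3.3) on log2(normalized count + 1), with 1 mean per group over all 8 libraries and Benjamini-Hochberg adjustment over all tested genes. The scripts were tested on simulated data. P-values rest on the spread between animals within groups, pooled over all groups and drawn towards the spread of other genes. They do not measure the spread of the compared groups alone. Alternatives were edgeR 4.0.16 and DESeq2 1.42.0 on the whole reads, TMM scaling, no filter, a filter of 50 counts, a pseudocount of 8, fits of only the groups compared, a replicate block, and leaving out each library.

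The 10 genes and all lists were chosen with earlier results of these data known, and counts over a list are descriptions. Named in the text are the 10 genes, from each list up to 3 called genes with the largest change between the grafts, up to 2 called against the list's direction and those under the filter, the 3 nearest profiles of each gene, and marker and ratio genes. Levels of different genes were not compared, since transcript lengths were not used here. Promoters are from RefSeq (GRCr8) and were matched by symbol; the kappa B consensus was searched on both strands. Expression coordinates were not used.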

Additional observations from a re-analysis of the deposited data

How the results depend on the processing

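All 160 alternative values of the 10 transcripts for PEG-fused against NC PNAs kept their direction and their side of the threshold. For NC PNAs against unoperated nerves 158 of 160 did, and for PEG-fused PNAs against unoperated nerves 153 of 160, with no reversal, and the exceptions are the leave-one-out calls of Rela, Nfkbia and Tnfaip3 given above. Leaving out 1 library at a time, 1359 to 2586 tested genes were upregulated and 1390 to 2389 downregulated in PEG-fused compared to NC PNAs, 1 to 2 of the 10 transcripts were lower in PEG-fused PNAs than in unoperated nerves, and 0 to 1 were lower in NC PNAs than in unoperated nerves. Without 1 unoperated nerve, the other is assumed to vary like the other groups.

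TMM scaling moved the median of all genes by at most 0.03 on the log2 scale. For PEG-fused against NC PNAs, edgeR called 2553 genes higher and 2424 lower, and DESeq2 2773 and 2759. Same-numbered libraries correlated above 0.1 in their deviations from group means in 6 of 7 pairs, at 0.108, 0.109 and -0.05 for PEG with NC, 0.154 and 0.136 for PEG with Unop, and 0.152 and 0.157 for NC with Unop. These values are not independent, because the deviations of the 2 unoperated nerves from their mean are equal and opposite. The deviations within each PNA group also sum to 0. PEG 3 and NC 3 did not correlate and the labels name no shared source, so the numbers were not taken to pair the animals. With the replicate block, 2110 genes were higher and 2055 lower in PEG-fused PNAs, and 9 of the 10 transcripts remained lower. In the 2 comparisons with unoperated nerves the block left the calls of the 10 transcripts as they were. With 2 unoperated nerves and 3 PNAs per group, the intervals of Rela still hold differences of up to 0.50 between the grafts.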
